A study of Rattus norvegicus with 176 samples.

Results

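Liver RNA of F344 rats given clofibric acid (CA) after DEN was compared with that of rats given DEN alone at the time the labels write as 5j, taken here as 5 days. Clofibric acid is a fibrate, and DEN is the usual abbreviation for the liver carcinogen diethylnitrosamine. The arrays were chosen by their source labels, DEN-CA at 5j (5 rats, numbers 4085 to 4089) and DEN at 5j (5 rats, numbers 4053 to 4057), which together are 10 of the 176 arrays of the study, with 1 Affymetrix array per rat in each group. Both groups carried DEN, so the groups differ in the drug. The titles name 5000 ppm CA for rats of every group, controls included, so group names and not the dose were followed. The labels give no DEN dose or interval, no sex or age, and no account of pooling. For context the effect was set beside that of CA alone at 5j (5 CA and 5 Control rats without DEN) and beside that of CA after DEN at 1m, 3m, 9m and 12m (5 DEN-CA and 5 DEN rats each).

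Fibrates bind PPARalpha, a nuclear receptor of hepatocytes that pairs with the retinoid X receptor and switches on genes for taking up, activating and burning fatty acids in peroxisomes and mitochondria. In rats and mice these drugs enlarge the liver and multiply its peroxisomes, which is why they are called peroxisome proliferators, and long feeding leads to liver tumours in these species. DEN damages DNA after activation by liver cytochrome P450 enzymes and is used to start such tumours.

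Signals below are deposited intensities after each array was scaled to a common median of 99.35, and the rats are always listed in the order of their numbers. Changes are log2 fold changes of signal + 25, with their standard error. The offset of 25 damps the folds of dim genes. A gene rose or fell if its adjusted p was below 0.05 in limma over 12393 probe sets. The brightest probe set stood for each of 8733 genes. The median of an array before scaling was between 38.4 and 131.8 in DEN-CA rats, with rat 4087 lowest, and between 51.6 and 129.4 in DEN rats. Arrays of 1 group correlated at 0.956 to 0.969 within DEN-CA and 0.95 to 0.974 within DEN, against 0.916 to 0.963 between the groups. The tissue carried liver transcripts throughout, with albumin (Alb) between 13525 and 23585 in DEN-CA rats and between 12816 and 26757 in DEN rats. DEN at 5j differed little from Control at 5j, with 3 of 8733 genes past the threshold (0.0344%).

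Clofibric acid after DEN raised 648 genes and lowered 358 in 5 days, 1006 of 8733 or 11.5% (7.42% higher and 4.1% lower). Most changes were small, with a median of 0.62 among the genes that rose and -0.66 among those that fell. A change of at least 1 log2 was reached by 125 of the genes that rose and 64 of those that fell. At 2 log2 there were 23 and 4. Groups did not overlap for 418 genes that were higher in DEN-CA rats (4.79%) and 247 that were lower (2.83%). The largest rises were in Acot1, Vnn1, Hdc, Fabp3, Aqp3 and Cidea, and the largest falls in Apoa4, Oat, Nrep, Tsc22d1, Cyp1a2 and Bmf. Without scaling of the arrays only 261 probe sets passed in place of 1302, and 32.6% of them were higher in place of 60.9%, while the median of all genes moved to -0.20, against 0.02 with scaling. All 40 genes named next stayed past the threshold without scaling and with each rat left out in turn.

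The largest change of all was in Acot1, a cytosolic thioesterase that splits long-chain acyl-CoA into free fatty acid and coenzyme A. Its signal was 3859, 3690, 7782, 1369 and 4580 in DEN-CA rats, against 22.5, 27.7, 28.1, 24.8 and 14.8 in DEN rats. The lowest DEN-CA rat was thus far above the highest DEN rat, and the DEN rats were at or near the offset, so that this sets the size of the fold. The rise was 6.27 ± 0.34 (77.2-fold, adjusted p = 4e-34), and it was 6.99 with an offset of 6 and 4.96 with one of 99. The mitochondrial relative Acot2 was at 527, 217, 1445, 508 and 421 in DEN-CA rats, against 74.3, 90.2, 98.8, 73.2 and 82.4 in DEN rats (2.32 ± 0.29, adjusted p = 1.2e-10). Rat 4087 stood far above the others in Acot2, and without it the rise was 1.96. Acot4, which encodes a peroxisomal thioesterase in the same tandem cluster on chromosome 6, had 748, 885, 2126, 371 and 916 in DEN-CA rats, against 122, 143, 230, 258 and 185 in DEN rats (2.11 ± 0.27). Acot8, the peroxisomal thioesterase on chromosome 3, had 760, 740, 1177, 829 and 1083 in DEN-CA rats, against 68.6, 211, 193, 168 and 170 in DEN rats (2.38 ± 0.22). Acot1, Acot2 and Acot4 are close copies of each other, and a further probe set on the array matches several of them and was given no gene, so part of a signal may come from a neighbour. Of 8 acyl-CoA thioesterases tested, 6 rose (75%) and 0 fell, against 7.42% and 4.1% of all genes. Their median was 1.46, against 0.02 over all genes. The other risers were Acot7 at 0.80 ± 0.21 and Them4 at 0.46 ± 0.15. Them4 lost its call when some single rats were left out, and a second probe set of Acot7 stood at 0.03 and did not pass.

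The promoters of these thioesterases are shown because their genes moved together and because PPARalpha binds pairs of the hexamer AGGTCA spaced by 1 base (AGGTCANAGGTCA). The windows are RefSeq sequences of build GRCr8, from 250 bases before to 50 after the start site, at chr6:109367024-109367323 for Acot1, chr6:109342590-109342889 for Acot2, chr6:109399604-109399903 for Acot4 (all on the plus strand) and chr3:173962139-173962438 for Acot8 (minus strand). Capitals mark the best match of the motif on either strand where it has at most 1 mismatch.
Acot1: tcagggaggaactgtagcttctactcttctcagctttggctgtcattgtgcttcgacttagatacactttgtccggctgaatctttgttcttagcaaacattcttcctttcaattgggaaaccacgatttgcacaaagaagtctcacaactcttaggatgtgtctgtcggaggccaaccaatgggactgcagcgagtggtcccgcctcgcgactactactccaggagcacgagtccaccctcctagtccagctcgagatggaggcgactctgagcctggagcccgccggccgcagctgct
Acot2: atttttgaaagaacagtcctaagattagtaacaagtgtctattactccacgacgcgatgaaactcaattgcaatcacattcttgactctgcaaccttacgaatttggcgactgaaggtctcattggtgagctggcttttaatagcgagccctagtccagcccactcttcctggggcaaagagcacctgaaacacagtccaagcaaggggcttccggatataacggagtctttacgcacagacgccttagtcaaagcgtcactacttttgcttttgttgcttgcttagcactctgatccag
Acot4: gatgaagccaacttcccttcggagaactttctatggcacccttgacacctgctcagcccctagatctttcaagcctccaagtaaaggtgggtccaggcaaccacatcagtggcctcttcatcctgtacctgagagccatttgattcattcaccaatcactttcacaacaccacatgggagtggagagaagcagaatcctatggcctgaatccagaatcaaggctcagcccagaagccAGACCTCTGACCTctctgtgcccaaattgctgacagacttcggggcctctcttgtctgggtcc
Acot8: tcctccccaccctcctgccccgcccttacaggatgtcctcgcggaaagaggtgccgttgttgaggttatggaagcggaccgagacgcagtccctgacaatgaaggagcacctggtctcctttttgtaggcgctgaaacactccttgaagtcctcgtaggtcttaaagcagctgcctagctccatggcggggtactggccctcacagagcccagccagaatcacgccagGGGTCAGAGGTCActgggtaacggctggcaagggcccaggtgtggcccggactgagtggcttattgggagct
Acot4 and Acot8 each held such a match with 1 mismatch, starting 13 bases upstream of the start site in Acot4 (on the opposite strand) and 22 in Acot8. The best matches in Acot1 and Acot2 had 4 mismatches. A match with at most 1 mismatch was found in 127 of 27457 rat promoter windows (0.463%) and in 36 of 7303 windows of genes tested (0.493%). It was found in 6 of 542 windows of genes that rose (1.11%) and in 1 of 297 of genes that fell (0.337%). Acadvl, an enzyme of mitochondrial fatty acid oxidation that rose by 0.87 ± 0.14, was another of the 6. The remaining matches among genes that rose or fell were in Als2cl, Pdzk1, Xrcc5 and mrpl11. These are letters in a short window and say nothing of binding, and regions further from the start were not searched.

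Genes of fatty acid uptake, binding and activation rose more often than not, 13 of 22 tested (59.1%), and 2 fell (9.09%). Among all genes 7.42% rose and 4.1% fell. Fabp3, a fatty acid binding protein best known from heart and muscle, had 772, 692, 2302, 286 and 1379 in DEN-CA rats, against 15.3, 8.79, 70.9, 29.1 and 14.8 in DEN rats. All DEN-CA rats were above all DEN rats, though the DEN-CA rats spread widely (4.20 ± 0.41, adjusted p = 1.4e-15). Cd36, the fatty acid translocase of the plasma membrane, had 1251, 823, 2126, 692 and 1870 in DEN-CA rats, against 117, 91.5, 72.6, 59 and 134 in DEN rats (3.43 ± 0.31). Acsl3, an acyl-CoA synthetase that activates long-chain fatty acids, rose by 2.24 ± 0.24, with rat 4087 at 1254 and the other 4 DEN-CA rats between 184 and 582, against 37 to 87.6 in DEN rats. Lipoprotein lipase (Lpl), which frees fatty acids from circulating triglyceride, rose too (adjusted p = 1.1e-08), and the acyl-CoA binding protein Dbi by 0.90 ± 0.16. Slc27a5, the bile acid-CoA ligase and fatty acid transporter of liver, went the other way, with 2055, 2933, 1889, 3930 and 2800 in DEN-CA rats, against 4875, 6179, 5851, 5502 and 7376 in DEN rats (-1.16 ± 0.21). Fabp2, the intestinal fatty acid binding protein, fell by 1.17 on the log2 scale, with dim signals of 7.4 ± 1.96 in DEN-CA rats and 48.2 ± 9.51 in DEN rats (SD, n = 5 each).

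**Figure D1:**
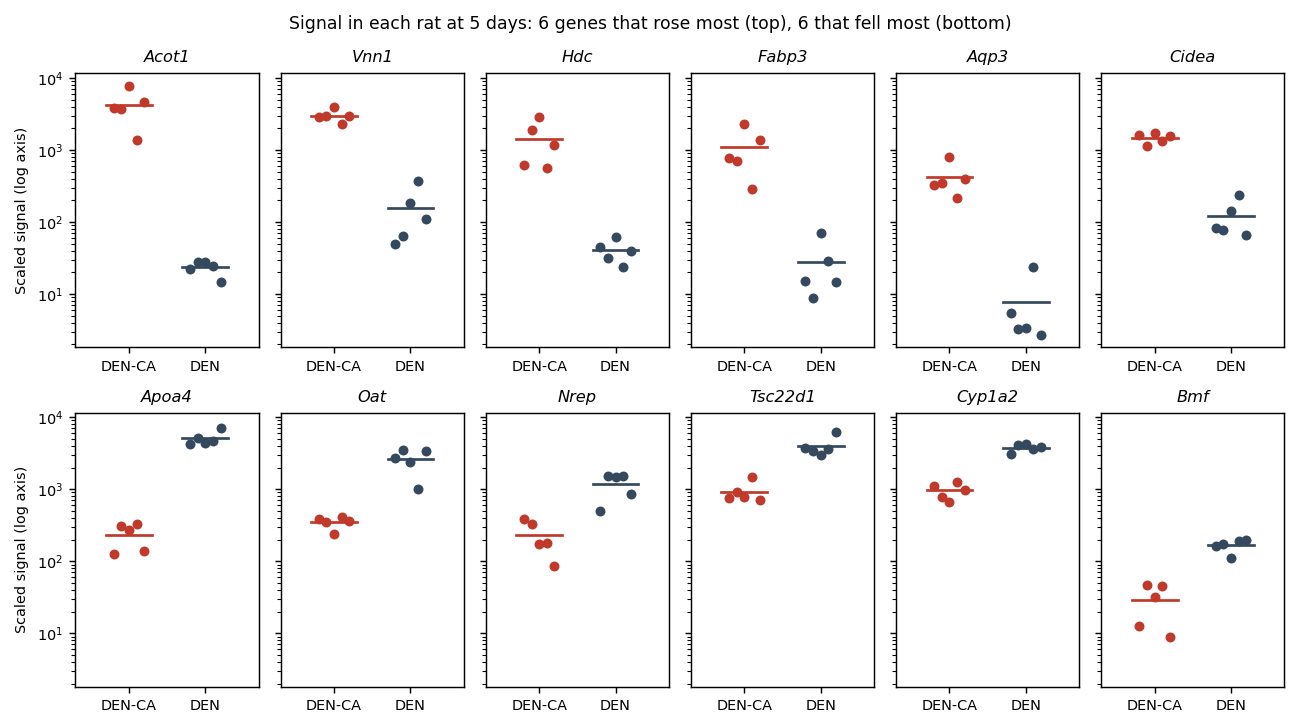
Scaled signal (log axis) in each rat at 5 days for the 6 genes that rose most (top) and the 6 that fell most (bottom), DEN-CA rats in red and DEN rats in grey-blue. Points are rats and lines are group means over 5 rats. In no panel do the 2 groups overlap, and in Acot1 the DEN-CA rats are between 1369 and 7782 while the DEN rats are between 14.8 and 28.1.

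Nearly the whole mitochondrial beta-oxidation list rose, 19 of 21 genes (90.5%) and 0 fell, against 7.42% and 4.1% of all genes. The median was 0.87, against 0.02 over all genes. The largest rise was in Cpt1b. Cpt1b, the muscle form of the carnitine palmitoyltransferase that passes acyl groups to carnitine, had 957, 897, 2237, 438 and 1141 in DEN-CA rats, against 133, 129, 90.5, 120 and 125 in DEN rats (2.83 ± 0.20, adjusted p = 6.8e-24). Every DEN-CA rat was above every DEN rat, and the DEN rats varied little. Cpt1a, the liver form of the same enzyme, was not among the 19, and a second probe set of it stood at -0.08. Carnitine acetyltransferase (Crat), which moves short acyl groups on and off carnitine, had 866, 1224, 2105, 647 and 1433 in DEN-CA rats, against 44.8, 187, 229, 317 and 266 in DEN rats (2.52 ± 0.25). The acylcarnitine carrier Slc25a20 rose by 1.09 ± 0.14 and Cpt2 by 1.19 ± 0.23. Among the oxidation enzymes, the enoyl-CoA isomerase Eci1 rose by 1.82 ± 0.19, the dienoyl-CoA reductase Decr1 by 1.39 ± 0.13, and both subunits of the trifunctional protein, Hadhb by 1.23 ± 0.15 and Hadha by 1.18 ± 0.15. A second probe set of Eci1 stood at 0.58 ± 0.30 and did not pass. Of the 19, 15 kept their call with each rat left out, and Acadm, Acads, Etfb and Etfdh did not. Without scaling 5 of 21 passed.

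Peroxisomal beta-oxidation had 10 of 18 genes higher (55.6%) and 0 lower, against 7.42% and 4.1% of all genes, with a median of 0.64. Ehhadh, the bifunctional enzyme of the pathway's middle steps, had 10565, 16797, 14290, 10962 and 12884 in DEN-CA rats, against 1522, 1641, 1689, 1919 and 2603 in DEN rats (2.79 ± 0.22, adjusted p = 6.7e-21). Every DEN-CA rat was far above every DEN rat. Crot, which exports shortened acyl groups as carnitine esters, rose by 1.72 ± 0.31, the dienoyl-CoA isomerase Ech1 by 1.41 ± 0.17, the coenzyme A diphosphatase Nudt7 by 1.30 ± 0.17 and the peroxisomal reductase Decr2 by 1.17 ± 0.18. Of 10 peroxins and peroxisomal membrane proteins, 3 rose (30%, against 7.42% of all genes) and 0 fell. Pex11a, which drives elongation and division of peroxisomes, had 2036, 2596, 3632, 1249 and 2582 in DEN-CA rats, against 327, 275, 582, 445 and 420 in DEN rats (2.45 ± 0.26). Pex19, a chaperone for peroxisomal membrane proteins, rose by 0.72 ± 0.13. Pex14, at 0.49 ± 0.17, lost its call when some single rats were left out.

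Omega-oxidation by the Cyp4 family and its partner dehydrogenases was split. Of 15 genes, 7 rose (46.7%) and 2 fell (13.3%), against 7.42% and 4.1% of all genes. Cyp4a1, the fibrate-inducible fatty acid hydroxylase of rat liver, had 7684, 13595, 12624, 7407 and 10378 in DEN-CA rats, against 1965, 2494, 2898, 2544 and 2297 in DEN rats (2.04 ± 0.19). Cyp4a3 rose by 0.69 ± 0.18 and the arachidonate epoxygenase Cyp2j4 by 1.84 ± 0.17. The retinal dehydrogenase Aldh1a1 had 4138, 3870, 5668, 2877 and 4915 in DEN-CA rats, against 722, 567, 793, 1065 and 1352 in DEN rats (2.25 ± 0.29). Cyp4a8 of the same subfamily as Cyp4a1 fell, with 92.4, 75.6, 52.8, 87.1 and 57.7 in DEN-CA rats, against 203, 150, 179, 170 and 163 in DEN rats (-1.03 ± 0.21), and its second probe set fell too (-1.84 ± 0.23). Some members of this family are alike in sequence, so cross-hybridisation between their probes is possible and was not tested.

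**Figure D2:**
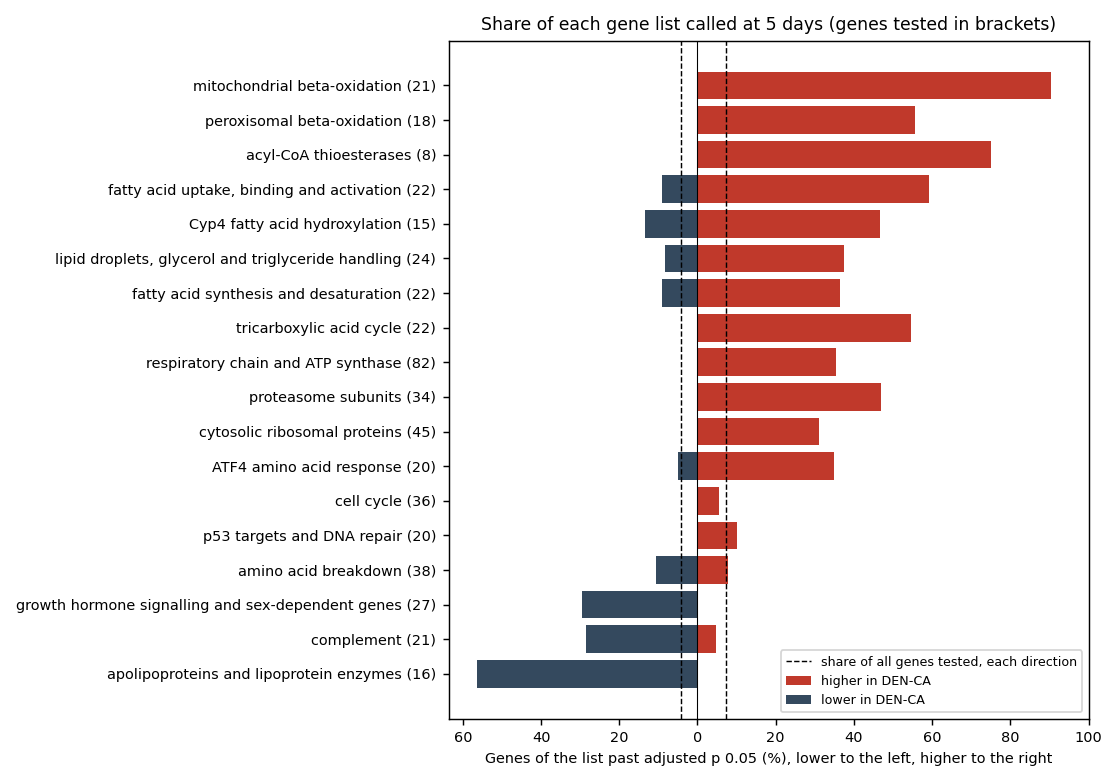
Percent of each gene list that rose (red, to the right) or fell (grey-blue, to the left) in DEN-CA against DEN rats at 5 days, with the number of genes tested in brackets. Dashed lines mark the shares among all genes tested, 7.42% higher and 4.1% lower. Mitochondrial beta-oxidation has the longest bar to the right at 90.5% and apolipoproteins the longest to the left at 56.2%.

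The coenzyme A salvage enzyme Vnn1, a pantetheinase, had 2823, 2944, 3879, 2303 and 2913 in DEN-CA rats, against 48.8, 62.9, 186, 365 and 110 in DEN rats. It was the second largest rise (4.32 ± 0.36), and here the DEN rats spread more than the DEN-CA rats did. Ppcs and Slc22a5, for coenzyme A synthesis and for carnitine import, rose by 1.03 ± 0.20 and 0.77 ± 0.18, and Bbox1, the last enzyme of carnitine synthesis, fell by 0.73 on the log2 scale. Of 24 genes for lipid droplets, glycerol and triglyceride, 9 rose (37.5%) and 2 fell (8.33%), against 7.42% and 4.1% of all genes. Plin2 was counted among the 9 by its brightest probe set, while a second one fell past the threshold (-0.82 ± 0.21). Plin3 lost its call when some single rats were left out. Cidea, a lipid droplet fusion protein of brown fat, had 1588, 1124, 1699, 1338 and 1571 in DEN-CA rats, against 81.6, 78.5, 140, 235 and 64.9 in DEN rats (3.46 ± 0.33). The glycerol channel Aqp3 had 323, 342, 801, 217 and 388 in DEN-CA rats, against 5.39, 3.26, 3.38, 23.7 and 2.7 in DEN rats (3.66 ± 0.24). Its DEN signals were below the offset of 25, and the rise was 4.99 with an offset of 6 and 2.18 with one of 99. Aqp9, the main glycerol channel of hepatocytes, fell by 0.95 on the log2 scale, as did Dgat2, the last enzyme of triglyceride synthesis, by 0.98, while its isoenzyme Dgat1 rose by 0.71 ± 0.13. The triglyceride lipase Pnpla2 rose by 1.14 ± 0.19.

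Genes of fatty acid synthesis and desaturation rose in part, 8 of 22 higher (36.4%) and 2 lower (9.09%), against 7.42% and 4.1% of all genes. Of the 8, 5 kept their call with each rat left out, and Fads1, Fasn and Srebf1 did not. Without scaling 3 of 22 were higher. A second probe set of Fasn stood at 0.31 and did not pass, while that of Srebf1 passed at 0.86. Malic enzyme (Me1), a source of NADPH, had 956, 1012, 2030, 769 and 1145 in DEN-CA rats, against 224, 273, 214, 192 and 224 in DEN rats (2.20 ± 0.20). The desaturases Fads2 and Scd rose by 1.82 ± 0.24 and 1.52 ± 0.39, and the elongase Elovl6 by 1.65 ± 0.30. Of 21 genes of cholesterol synthesis and uptake 2 rose (9.52%, near the 7.42% of all genes) and 0 fell. Lss, 1 of the 2, lost its call when some single rats were left out. Quantile normalization gave 2 higher and 3 lower. Of 9 genes for ketone bodies and fasting, 4 rose (44.4%), among them Acat1 at 1.66 ± 0.16, Pdk4 at 1.33 ± 0.27 and Angptl4 at 1.16 ± 0.25. Pdk4, a brake on pyruvate oxidation, had 472, 231, 2061, 189 and 1462 in DEN-CA rats, against 216, 237, 237, 184 and 219 in DEN rats. Its rise came from 3 of the 5 DEN-CA rats, and it did not pass in a fit of the 2 groups alone. The fasting hormone Fgf21 stood at 0.38 and did not pass.

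Mitochondrial energy genes rose in larger numbers and by less. Among all genes 7.42% rose and 4.1% fell, with a median of 0.02. Of 22 tricarboxylic acid cycle genes 12 rose and 0 fell (median 0.45), and all 22 had a positive change. Suclg1, a subunit of succinyl-CoA ligase, rose by 1.07 ± 0.14 and Idh3b of isocitrate dehydrogenase by 0.76 ± 0.14. Of 82 respiratory chain and ATP synthase genes 29 rose and 0 fell (35.4%, median 0.38). Ndufa3 of complex I led these with 5610, 8780, 8045, 5229 and 7283 in DEN-CA rats, against 2127, 2369, 2391, 3119 and 3061 in DEN rats (1.40 ± 0.16). Proteasome subunits rose in 16 of 34 (47.1%, median 0.44) and cytosolic ribosomal proteins in 14 of 45 (31.1%, median 0.35), with 0 lower in each. The calls in these 4 lists depend on the scaling of arrays. Without it 0, 1, 0 and 0 genes passed. The medians were then 0.18, 0.11, 0.17 and 0.08, against -0.20 over all genes. With each rat left out 10 of the 12, 18 of the 29, 7 of the 16 and 5 of the 14 kept their calls.

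Hdc, histidine decarboxylase, which makes histamine, came next after Vnn1, with 619, 1871, 2848, 554 and 1181 in DEN-CA rats, against 44.5, 32.1, 62.6, 23.5 and 39.3 in DEN rats (4.22 ± 0.36, adjusted p = 3.3e-19). The rest of the 20 largest rises were the steroid 17-hydroxylase Cyp17a1 (2.38 ± 0.29), the calcium channel subunit Cacna2d3 (2.48 ± 0.25), Aig1, a hydrolase of fatty acid esters of hydroxy fatty acids (2.33 ± 0.16), and the nicotinic receptor subunit Chrna2 (2.16 ± 0.31). Chrna2 was at 243, 196, 1372, 118 and 700 in DEN-CA rats, against 40.3, 73.5, 93.2, 67.2 and 45.1 in DEN rats. Its change without rat 4087 was 1.69.

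The size of the response differed among the treated rats. Rat 4087 was the highest of the 5 DEN-CA rats in 19 of the 20 genes that rose most, and rat 4088 the lowest in 16. The median distance from the mean of the other DEN-CA rats over these 20 genes was 1.06 log2 for rat 4087 and -0.97 for rat 4088. Over all 8733 genes these medians were 0.08 and -0.01. Rat 4087 was highest in 51.9% of the 648 genes that rose and in 30.1% of all genes. In the 20 genes that fell most, rat 4088 was the highest in 10 and rat 4087 the lowest in 9. Both arrays carry a B suffix that the labels do not explain, and that of rat 4087 had the lowest deposited median of the 10 (38.4). Whether the array or the animal sets this order was not tested. Without rat 4087, 965 probe sets passed, against 1302 with all rats.

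**Figure D3:**
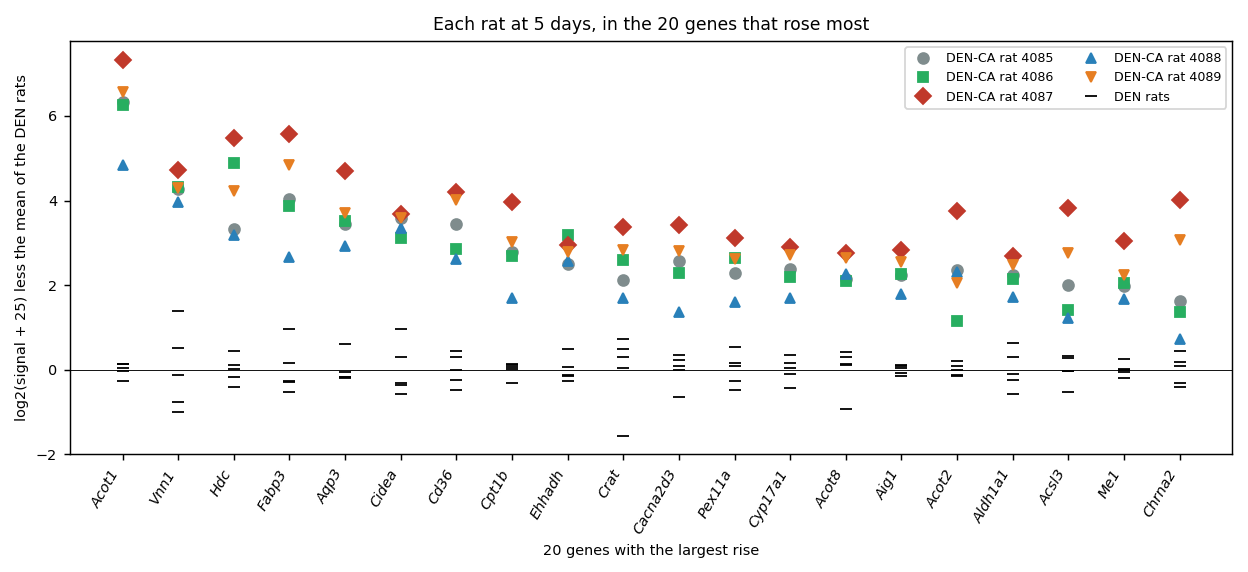
log2(signal + 25) of each rat less the mean of the 5 DEN rats, for the 20 genes that rose most. Coloured symbols are the DEN-CA rats and black dashes the DEN rats. Rat 4087 (red diamonds) is the highest in 19 of 20 genes and rat 4088 (blue triangles) the lowest in 16, while all DEN-CA symbols are above all DEN dashes.

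Apolipoproteins and lipoprotein enzymes moved only downward, with 9 of 16 genes lower (56.2%) and 0 higher, against 4.1% and 7.42% of all genes. The median was -0.50, against 0.02 over all genes. Apoa4, an apolipoprotein of triglyceride-rich particles and HDL, had the largest fall on the array, with 126, 307, 269, 331 and 141 in DEN-CA rats, against 4182, 5112, 4419, 4676 and 7004 in DEN rats (-4.36 ± 0.22, adjusted p = 1.6e-36). The highest DEN-CA rat, at 331, was far below the lowest DEN rat, at 4182. Apoa1, the main protein of HDL, had 2519, 4348, 3898, 4791 and 4458 in DEN-CA rats, against 9494, 12889, 8516, 7909 and 14348 in DEN rats (-1.40 ± 0.21). Apom changed by -1.34 ± 0.20, Apoc4 by -1.05 ± 0.18, Apoc3, an inhibitor of triglyceride clearance, by -0.93 ± 0.18, and Lcat, which esterifies HDL cholesterol, by -0.72 ± 0.14. Lipc and Scarb1 lost their calls when some single rats were left out.

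Oat, the ornithine aminotransferase of pericentral hepatocytes, was second among the falls, with 384, 351, 237, 414 and 364 in DEN-CA rats, against 2727, 3546, 2364, 1018 and 3429 in DEN rats (-2.72 ± 0.33). Cyp1a2, a P450 also found mainly near the central vein, had 1115, 789, 674, 1248 and 986 in DEN-CA rats, against 3126, 4067, 4185, 3608 and 3886 in DEN rats (-1.97 ± 0.26). Rgn, also pericentral, changed by -1.23 ± 0.19. The other 8 pericentral markers tested did not pass, among them Glul at 1680 ± 447 in DEN-CA rats and 1550 ± 87.1 in DEN rats (SD, n = 5 each) and Cyp2e1 at -0.16. Of 12 periportal markers tested 2 rose and 2 fell. Their median was -0.30, against -0.18 for the 11 pericentral markers, so the falls were not particular to pericentral genes. Of 38 amino acid breakdown genes, 3 rose (7.89%) and 4 fell (10.5%), against 7.42% and 4.1% of all genes. Acmsd, which steers tryptophan away from NAD synthesis, and Cbs of the methionine route were among those that fell, at -1.39 ± 0.24 and -0.78 ± 0.20. Bhmt, which remethylates homocysteine with betaine, had 2476, 2285, 1381, 4912 and 1966 in DEN-CA rats, against 7657, 6967, 7217, 3494 and 7830 in DEN rats (-1.41 ± 0.32). Here the groups overlapped, through rat 4088 on 1 side and rat 4056 on the other.

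Of the remaining large falls, Tsc22d1, a leucine zipper regulator, had 760, 900, 779, 1454 and 703 in DEN-CA rats, against 3681, 3428, 2976, 3668 and 6150 in DEN rats (-2.09 ± 0.27). Nrep changed by -2.27 ± 0.47, the pro-apoptotic BH3 protein Bmf by -1.87 ± 0.27, Egr1, an immediate early transcription factor, by -1.81 ± 0.42, and Hsd11b1, which regenerates active glucocorticoid, by -1.81 ± 0.25. Egr1 was at 78.1, 152, 200, 128 and 113 in DEN-CA rats, against 760, 520, 598, 396 and 384 in DEN rats. Ier3 fell with it (adjusted p = 0.0024). Dusp1 stood at -0.98 ± 0.32 and Myc, in the other direction, at 1.09 ± 0.36. Both passed, but lost their calls when some single rats were left out. Fmo1, Papss2, Avpr1a, Tkfc, Abhd2, Marveld1, Isyna1 and Praf2 completed the 20 largest falls along with Hbb, with changes from -1.59 (Abhd2) to -1.36 (Praf2).

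Of 21 complement genes, 6 fell (28.6%) and 1 rose (4.76%), against 4.1% and 7.42% of all genes. C1r and C1s, the proteases of the first complement component, changed by -1.16 ± 0.20 and -1.06 ± 0.21. Of 12 coagulation genes 3 fell (25%) and 1 rose (8.33%), and of 26 acute phase and plasma protein genes 3 fell (11.5%) and 2 rose (7.69%). Apcs, serum amyloid P, had 3770, 3829, 3495, 3991 and 3518 in DEN-CA rats, against 9710, 8326, 6072, 5363 and 8750 in DEN rats (adjusted p = 1.6e-05). These 3 counts depend on the scaling, and after quantile normalization 10 complement, 9 coagulation and 11 acute phase genes were lower. Of 27 genes of growth hormone signalling and sex-dependent expression, 8 fell and 0 rose (29.6%). Igfals, the subunit that keeps IGF-1 in the circulation, had 743, 1288, 1079, 828 and 874 in DEN-CA rats, against 1646, 2090, 1868, 1886 and 2267 in DEN rats (-1.02 ± 0.21). Igfbp3 and the steroid transporter Slco1a1 changed by -0.61 ± 0.18 and -0.78 ± 0.21. The other 5, Ghr, Igf1, Igfbp4, Stat5a and Stat5b, lost their calls when some single rats were left out.

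Amino acid supply and stress genes moved in part. Of 20 genes of the ATF4 amino acid response 7 rose (35%) and 1 fell. Asns, asparagine synthetase, had 289, 341, 251, 231 and 390 in DEN-CA rats, against 82.5, 85.2, 58.5, 79.9 and 69.1 in DEN rats (1.69 ± 0.25). The serine synthesis enzyme Psat1 rose by 1.78 ± 0.32, the stress protein Nupr1 by 1.71 ± 0.25 and the amino acid transporter subunit Slc3a2 by 1.20 ± 0.20, while Atf5 changed by -0.90 ± 0.20. Of 23 ER chaperones and unfolded protein response genes 0 rose and 4 fell (17.4%), against 7.42% higher and 4.1% lower among all genes. In the NRF2-type list 4 of 18 rose (22.2%), led by Me1, which belongs to 2 lists, and by Hmox1, haem oxygenase 1, at 1.32 ± 0.21.

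Few proliferation genes passed. Of 36 cell cycle genes 2 did, both upward (5.56%, a share near the 7.42% of all genes), and neither Tubb5 nor Ube2c kept its call with each rat left out. The change was positive for 30 of the 36, against 4629 of 8733 genes, with a median of 0.20, against 0.02 over all genes. Without scaling of the arrays the median was -0.03, against -0.20 over all genes. The signals of the 36 summed to between 5669 and 11417 in DEN-CA rats and between 5446 and 6506 in DEN rats. The mitotic topoisomerase Top2a was at 100, 36.2, 268, 67.4 and 97.4 in DEN-CA rats, against 61.1, 40.2, 46.7, 53.9 and 45.4 in DEN rats (0.70, adjusted p = 0.079). Cdk1, the mitotic kinase, was at 141, 82.7, 293, 83.8 and 197 in DEN-CA rats, against 98.3, 66, 87.6, 67 and 66.2 in DEN rats (0.74, adjusted p = 0.12). In both genes rat 4087 was the highest. Of 20 p53 targets and DNA repair genes 2 rose (10%, also near the 7.42% of all genes) and 0 fell. Xrcc5, 1 of the 2, lost its call when some single rats were left out. The brightest probe set of Cdkn1a, the p21 inhibitor, stood at -0.53 without passing, while a second one fell (-0.83 ± 0.25). Nbn, a double-strand break protein that is not in that list, rose by 1.45 ± 0.22. It is 1 gene picked from outside the list and leaves the count of 2 in 20 unchanged. The foci marker Gstp1 was at 138, 148, 251, 218 and 318 in DEN-CA rats, against 74.8, 246, 298, 152 and 296 in DEN rats, with full overlap.

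Markers of other cells were counted as well, against 7.42% higher and 4.1% lower among all genes. In bulk tissue fewer cells of a type and less RNA per cell cannot be told apart. Erythroid genes fell in 3 of 4 tested, of which Hbb kept its call with each rat left out while Alas2 and Hba-a3 did not, and 0 of 4 passed among the arrays with the B suffix alone. Hbb, beta-globin, was at 1120, 2188, 3729, 2146 and 1436 in DEN-CA rats, against 4986, 6454, 5874, 3904 and 6812 in DEN rats (-1.48 ± 0.23), and the 4 erythroid signals summed to between 1540 and 4418 in DEN-CA rats and between 4712 and 7717 in DEN rats. Of 11 Kupffer cell and macrophage markers 2 fell, lysozyme Lyz2 (-1.12 ± 0.16) and Cd14 (-0.80 ± 0.22), and their sum was between 4282 and 7139 in DEN-CA rats and between 4782 and 8176 in DEN rats. Of 18 stellate cell and fibroblast markers 1 fell (Pdgfrb, 5.56%), of 16 T and NK lymphocyte markers 1 fell (Cd3g, 6.25%), of 4 bile duct markers 1 rose (Epcam), and 0 of 12 endothelial, 0 of 3 neutrophil and 0 of 8 pancreatic acinar markers passed. Of 9 hepatocyte markers 1 fell (Ahsg), and no B or plasma cell marker was tested. The part of blood or other cells in the falls above was not tested.

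The same drug effect was read in rats without DEN, which share no animals with this comparison. The unexplained B suffix was on most of the Control arrays but on fewer of the CA arrays. CA alone changed 981 of 8733 genes at 5j (11.2%), 359 higher (4.11%) and 622 lower (7.12%). Of these 463 were also past the threshold in the same direction after DEN, which is 46% of the 1006 genes changed after DEN and 47.2% of those changed without it, and 1 was past it in opposite directions. Over all genes the 2 changes correlated at 0.68, as a description across genes that share arrays. Of the 1006, the median size was 0.64 after DEN and 0.42 without it in the same direction. The genes were chosen on the first of these. Acot1 changed by 6.27 after DEN and by 5.62 without, Cd36 by 3.43 and 3.53, Apoa4 by -4.36 and -4.22 and Oat by -2.72 and -2.73. Fabp3 changed by 4.20 and 2.47, Cidea by 3.46 and 2.24, Crat by 2.52 and 1.16, and Bmf by -1.87 and -0.42. Among lists, mitochondrial beta-oxidation rose in 16 of 21 genes without DEN (median 0.63), proteasome subunits in 1 of 34 (0.15) and the respiratory chain in 9 of 82 (0.24).

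The difference between the drug's effect with and without DEN was itself tested, and 5 of 12393 probe sets passed (2 of 8733 genes, 0.0229%), while 1139 had an unadjusted p below 0.05. None of the 40 genes with the largest changes was among them. Stat5b, a transcription factor of growth hormone signalling, changed by -0.49 after DEN and by 0.62 without it, a difference of -1.12 (adjusted p = 0.045), and its change after DEN lost its call when some single rats were left out. Between 0 and 29 probe sets passed when single rats were left out, and 0 in a fit of the 4 groups alone.

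**Figure D4:**
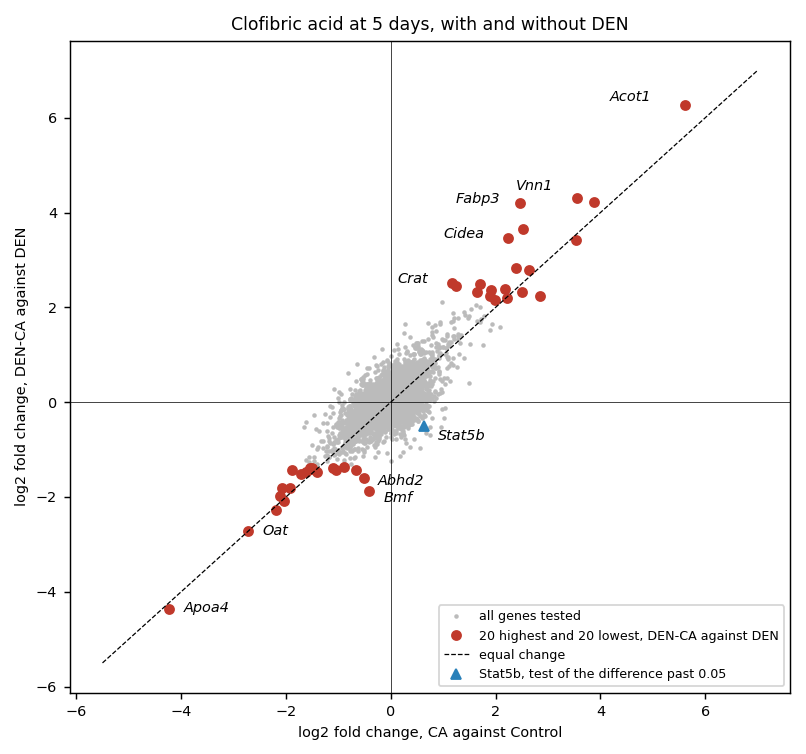
log2 fold change of CA at 5 days after DEN (DEN-CA against DEN, vertical) against that without DEN (CA against Control, horizontal). Grey points are all 8733 genes tested, red points the 20 highest and 20 lowest changes after DEN, the triangle Stat5b, and the dashed line equal change. Acot1 and Apoa4 are the extremes in both, while Fabp3, Cidea and Crat are above the line.

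The genes changed at 5j were looked up at the later times. They were chosen for passing at 5j, so a smaller share in other rats follows in part from that choice. CA without DEN at 5j shared 46% of them. Of the 1006 genes changed at 5j, 626 (62.2%) were changed in the same direction at 1m, 553 (55%) at 3m, 263 (26.1%) at 9m and 317 (31.5%) at 12m. They made up 40.2%, 41.1%, 40.9% and 48.8% of the genes changed at those times. The number of genes changed was 1559 (17.9%) at 1m, 1347 (15.4%) at 3m, 643 (7.36%) at 9m and 650 (7.44%) at 12m, and 12.2%, 11.2%, 2.4% and 3.57% of all genes were higher. Mitochondrial beta-oxidation rose in 19 of 21 genes at 5j, 15 at 1m, 10 at 3m, 1 at 9m and 7 at 12m, with medians of 0.87, 0.60, 0.37, 0.07 and 0.23. Respiratory chain genes rose in 29 of 82 at 5j, 63 at 1m and 6 at 12m. The difference between the effect at a later time and that at 5j was tested, and 33 (0.266%), 73 (0.589%), 263 (2.12%) and 110 (0.888%) probe sets passed at 1m, 3m, 9m and 12m. All 4 tests use the same 5j rats. The unexplained B suffix was uneven at 9m, being on most DEN-CA arrays and few DEN arrays, and absent at 12m. It was uneven at 3m too, being on most DEN-CA arrays and a minority of DEN arrays. At 5j fewer DEN-CA than DEN arrays carried it. With the suffix as covariate 1160 probe sets passed at 9m in place of 263, of which 1041 were lower than at 5j. The count at 9m thus depends on how the suffix is handled, and the cause was not tested.

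Among the leading genes, Cd36 changed by 3.43 at 5j, 1.87 at 1m, 1.63 at 3m, 0.20 at 9m and 0.12 at 12m, and the difference from 5j passed at 3m, 9m and 12m. Fabp3 changed by 4.20 at 5j, 3.26 at 1m, 1.61 at 3m, -0.17 at 9m and 1.07 at 12m. Pex11a changed by 2.45 at 5j, 0.70 at 1m and 0.59 at 12m, with the difference past the threshold at each later time. Acot1 was still higher at 12m, by 3.12. These genes were picked for a large change at 5j, which favours a smaller one at other times. Other genes held. Hdc changed by 4.22 at 5j, 4.58 at 1m and 3.53 at 12m, Me1 by 2.20, 2.97 and 2.11, and Apoa4 by -4.36, -4.99 and -4.23, with no difference from 5j past the threshold at any time. Cyp1a2 changed by -1.97 at 5j and -0.28 at 12m, and Hbb by -1.48 at 5j and 0.18 at 1m. The desaturase Scd2 went the other way, with a change of 0.89 at 5j, which did not pass, and 3.57 at 1m and 4.62 at 12m.

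**Figure D5:**
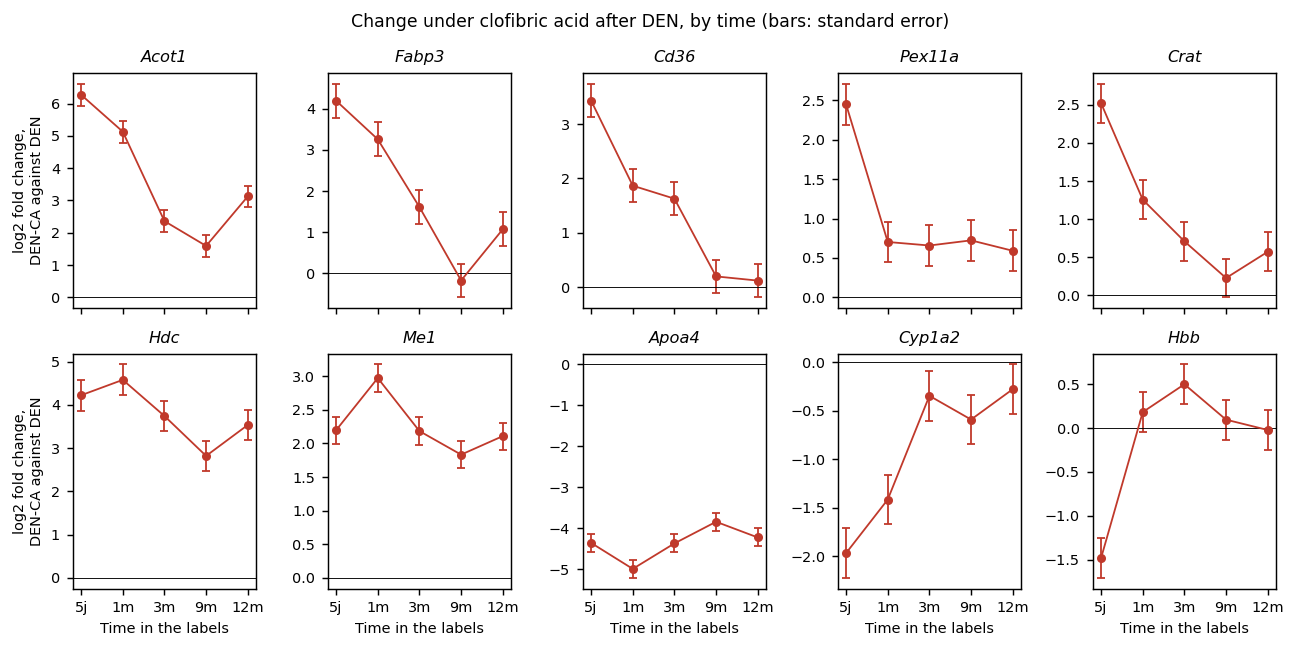
log2 fold change of DEN-CA against DEN rats at each time in the labels for 10 genes, with standard errors, each panel on its own axis. Cd36, Fabp3, Crat and Pex11a are highest at 5j, Hdc, Me1 and Apoa4 stay far from 0 at every time, and Cyp1a2 and Hbb are near 0 at 12m.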

How the data were processed

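The deposited table holds linear intensities, 1 column for each of 176 arrays. Per the submitters' processing notes they were made with MAS5. Its version, the scaling target and the handling of replicates are not given in the sources used here. Probe sets were named through the platform annotation and RefSeq, 12783 with 1 gene, 312 with several and 2827 with none. Each array was scaled to the median of all array medians (99.35), 25 was added, and log2 taken. A probe set was kept if 3 or more arrays had it above their 40th percentile. The 148 arrays without a TU or PERI tag in their title (30 groups) entered 1 limma fit (limma 3.58.1, R 4.3.3) with a mean per group, a variance trend and 118 residual degrees of freedom. Tests were two-sided, with Benjamini-Hochberg adjustment over 12393 probe sets and a threshold of 0.05. The p-values set each change against the spread between rats of the same group, pooled over all 30 groups and not the 2 compared alone. In a fit of the DEN-CA and DEN groups at 5j alone, 854 probe sets passed in place of 1302. The adjusted p of Acot1 was far larger in that fit, though still past the threshold. No 2 arrays held identical values.

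Named were the 20 highest and 20 lowest changes at 5j, the 10 highest and lowest in each difference of effects, and members of 53 lists. Comparison, genes and lists were chosen with earlier results of these data known. Lists are described by counts and medians, with no set test. Data of 12798 probe sets were simulated for this comparison, with 67, 67 and 66 of them changed by 0.5, 1 and 2 log2. Of these 29.9%, 89.6% and 97% were called, and 7.69% of calls were false. Far fewer were changed than the 1302 that passed in the data, which makes the adjusted threshold stricter. These shares need not hold for the data themselves. As alternatives the offset was 6 or 99, arrays were left unscaled or quantile normalized, and the filter was dropped or set at the 70th percentile, besides fits of the groups alone, the B suffix as covariate or as subsets, array weights, no variance trend, a 2-fold limit, the probe set with the smallest p per gene, and each rat left out.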

Additional observations from a re-analysis of the deposited data

Results flagged for a closer look

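In 6 of 82 groups of 5 signals 1 rat stood apart, by Dixon's test with a critical value of 0.71. Chance marks about 1 in 20 groups. In DEN-CA rats these were Acot2 in rat 4087, at 1445 against 217 to 527 in the others, and Tsc22d1 in rat 4088, at 1454 against 703 to 900. In DEN rats they were Aqp3 in rat 4056, at 23.7 against 2.7 to 5.39, Tsc22d1 in rat 4057, at 6150 against 2976 to 3681, Marveld1 in rat 4053, at 354 against 576 to 616, and Bhmt in rat 4056, at 3494 against 6967 to 7830.

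The effect of CA after DEN less that without DEN passed limma's test at 5 probe sets. The differences were -1.12 for Stat5b, -0.74 for RT1-CE10, -0.78 for a probe set of Kidins220, 1.22 for one of Cadm1 and 0.91 for a probe set with no gene. The effect after DEN was -0.49 for Stat5b and that without it 0.62.

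The effect of CA after DEN at a later time less that at 5j passed limma's test for the following genes named here, each value being the later log2 fold change less the early one. At 1m the effect was lower than at 5j for Pex11a (-1.75), Cacna2d3 (-1.71) and Hmox1 (-1.46). It was higher at 1m for Atf5 (1.27), Hbb (1.67), Fabp5 (1.77), Fos (1.91) and Scd2 (2.68). At 3m the effect was lower than at 5j for Acot1 (-3.91), Fabp3 (-2.58), Acot4 (-2.38), Cacna2d3 (-2.33), Pdk4 (-2.26), Angptl4 (-2.23), Cyp3a9 (-2.06), Crat (-1.81), Cd36 (-1.80), Pex11a (-1.79) and Aig1 (-0.85). It was higher at 3m for Tkfc (1.07), Atf5 (1.41), Cyp1a2 (1.62), Alas2 (1.67), Hbb (1.98), Cyp7a1 (2.0), Phgdh (2.04) and Scd2 (3.46). At 9m the effect was lower than at 5j for Acot1 (-4.68), Fabp3 (-4.37), Cd36 (-3.24), Acot4 (-2.83), Cyp3a9 (-2.76), Angptl4 (-2.53), Cyp4a8 (-2.33), Cacna2d3 (-2.33), Crat (-2.29), Cidea (-2.17), Aldh1a1 (-1.92), Aqp3 (-1.83), Aig1 (-1.74), Pex11a (-1.73), Acot8 (-1.71), Acot2 (-1.69), Cpt1b (-1.34) and Ehhadh (-1.16). It was higher at 9m for Abcc2 (1.19), Asns (1.34), Cyp1a2 (1.38), Hbb (1.58), Cela1 (1.91), Phgdh (2.07) and Scd2 (3.28). At 12m the effect was lower than at 5j for Obp3 (-3.91), Cd36 (-3.31), Acot1 (-3.15), Fabp3 (-3.12), Cacna2d3 (-2.55), Aldh1a1 (-2.53), Cyp4a8 (-2.46), Angptl4 (-2.45), Slc25a30 (-2.42), Crat (-1.95), Pex11a (-1.86) and Aig1 (-1.11). It was higher at 12m for Apoa1 (1.21), Asns (1.42), Hbb (1.46), Cyp1a2 (1.69), Phgdh (1.85), Bhmt (2.07), Cela1 (2.45) and Scd2 (3.73). All 4 tests share the 5j rats, so the same gene at several times is not independent.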

How the results depend on the processing

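All 40 genes with the largest changes stayed past the threshold under each alternative that tested all rats, 38 of 38 under the 70th percentile filter. Among the 5 arrays with the B suffix alone Acmsd, Bhmt, Egr1 and Hbb did not pass, and among the 5 without it Isyna1, Marveld1 and Nrep did not. Of 298 named genes past the threshold at 5j, 204 passed with each rat of the comparison left out, and 98 without scaling. No gene changed direction except Ppp1r3b, which stood at 0.16 among the B arrays alone. The count of probe sets at 5j was 261 without scaling (85 higher, 176 lower), 854 in a fit of the 2 groups, 253 with a 2-fold limit, 373 among B arrays, 704 among the others and 965 to 1274 with single rats left out. Quantile normalization gave 1683 (912 higher, 771 lower). The difference between the effect with and without DEN (5 probe sets) gave 8 with an offset of 99 and with the stricter filter, 0 without scaling and in a fit of the groups alone, 19 with quantile normalization, 1 without a filter and with array weights, 2 with a 2-fold limit and 0 to 29 with single rats left out. At 1m against 5j (33) it was 21 without scaling, 102 with quantile normalization, 16 with the groups alone, 58 with array weights and 17 (without DEN-CA rat 4093) to 47, with 21 without DEN-CA rat 4089. At 3m (73) it was 28 without scaling, 146 with quantile normalization and 44 (without DEN-CA rat 4087) to 111 (without 4088). At 9m (263) it was 53 without scaling, 1160 with the B suffix as covariate, 439 with array weights, 131 with a 2-fold limit and 141 (without DEN-CA rat 4087) to 381, with 163 without DEN-CA rat 4115, 172 without DEN rat 4070 and 175 without DEN rat 4053. At 12m (110) it was 28 without scaling, 184 with quantile normalization and 77 to 128 with single rats left out. With an offset of 99, which damps dim genes, the changes were 1.48 for Cacna2d3, -1.05 for Bmf and -0.74 for Isyna1, against 2.48, -1.87 and -1.44. The causes were not tested. Changes of 0.5 log2 were mostly missed in simulated data, in which far fewer probe sets were changed than passed here. No paired analysis was possible because the rats of the 2 groups carry different numbers.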
